A study of Homo sapiens with 43 samples.

Results

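H3K27ac, acetylation of lysine 27 on histone H3 and a mark of active promoters and enhancers, was compared between 5 lung squamous carcinoma lines with wide acetylation at TP63 and 6 lines without it. The first group, called the acetylated lines here, holds HCC95, HARA, KNS62, HCC2814 and LC-1/SQSF. The other 6 lines are Calu-1, EBC-1, HCC2279, HCC2450, NCI-H2887 and SQ-1. The 11 samples are 11 of 43 in the series, of which 27 have a deposited peak list and 17 of those are H3K27ac lists. LK2 and NCI-H520, the lines with Brn2 chromatin immunoprecipitation (ChIP), were left out. All 11 lines were grown in RPMI-1640 with serum and no treatment, the same antibody was used, and 1 library represents each line. The labels call every line lung squamous cell carcinoma and give no genotype.

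TP63 encodes p63, a transcription factor of the p53 family that maintains the basal cells of skin, oesophagus and airway. Its N-terminally truncated forms, DNp63, predominate in squamous epithelium and in squamous carcinoma, where p63 acts with SOX2 and KLF5 at enhancers of keratin and desmosome genes. Squamous carcinoma lines that lack p63 are known to be more mesenchymal or less differentiated. H3K27ac peaks show which promoters and enhancers are marked, not how much RNA is made. Because each list comes from a bulk culture, a wider peak in every cell and a peak in more of the cells cannot be told apart.

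The lines were chosen by their acetylation at TP63, so its values are a description with no test. Covered length means the base pairs under H3K27ac peaks in a bin of 50 kb, scaled so that every list has the same total. Over the 7 bins of TP63 (hg19, chromosome 3, 189300001 to 189650000), the covered length was 68.0 kb in HCC95, 73.6 kb in HARA, 50.8 kb in KNS62, 121 kb in HCC2814 and 120 kb in LC-1/SQSF. In the other lines it was 8.69 kb in HCC2450, 17.96 kb in SQ-1, 6.999 kb in Calu-1, 22.9 kb in EBC-1, 9.44 kb in NCI-H2887 and 19.4 kb in HCC2279. KNS62 and EBC-1 are therefore the lines on either side of the gap that the choice used. The widest peak over the gene measured 7.11 to 41.8 kb in the acetylated lines and 1.96 to 4.63 kb in the others. The other 6 lines still listed 6 to 16 narrow peaks there, so they are not called TP63-silent here.

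Acetylation within the gene was uneven. The bin at 189500001, which holds the internal start site of the DNp63 transcripts, had 22.9, 26.2, 18.1, 41.4 and 37.8 kb in HCC95, HARA, KNS62, HCC2814 and LC-1/SQSF, and at most 1.80 kb in any other line. The bin of the upstream start at 189300001 had 1.63 to 10.2 kb in the acetylated lines and up to 3.92 kb in the others, so these ranges overlapped. Within 1 kb of that start itself, 0 acetylated lines and 4 of the other lines had a peak. A second wide stretch lay upstream of the gene, in the bin at 189000001, with 18.8 to 44.4 kb in the acetylated lines against 0.596 to 14.2 kb. The bin directly beyond the gene, at 189650001, had 9.48 to 28.1 kb in the acetylated lines and 3.88 to 8.12 kb in the others, with no overlap. The next bin, at 189700001, held 0.824 to 5.96 kb in the acetylated lines and 2.76 to 17.2 kb in the others, with HCC2450 highest, and the ranges overlapped.

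**Figure D1:**
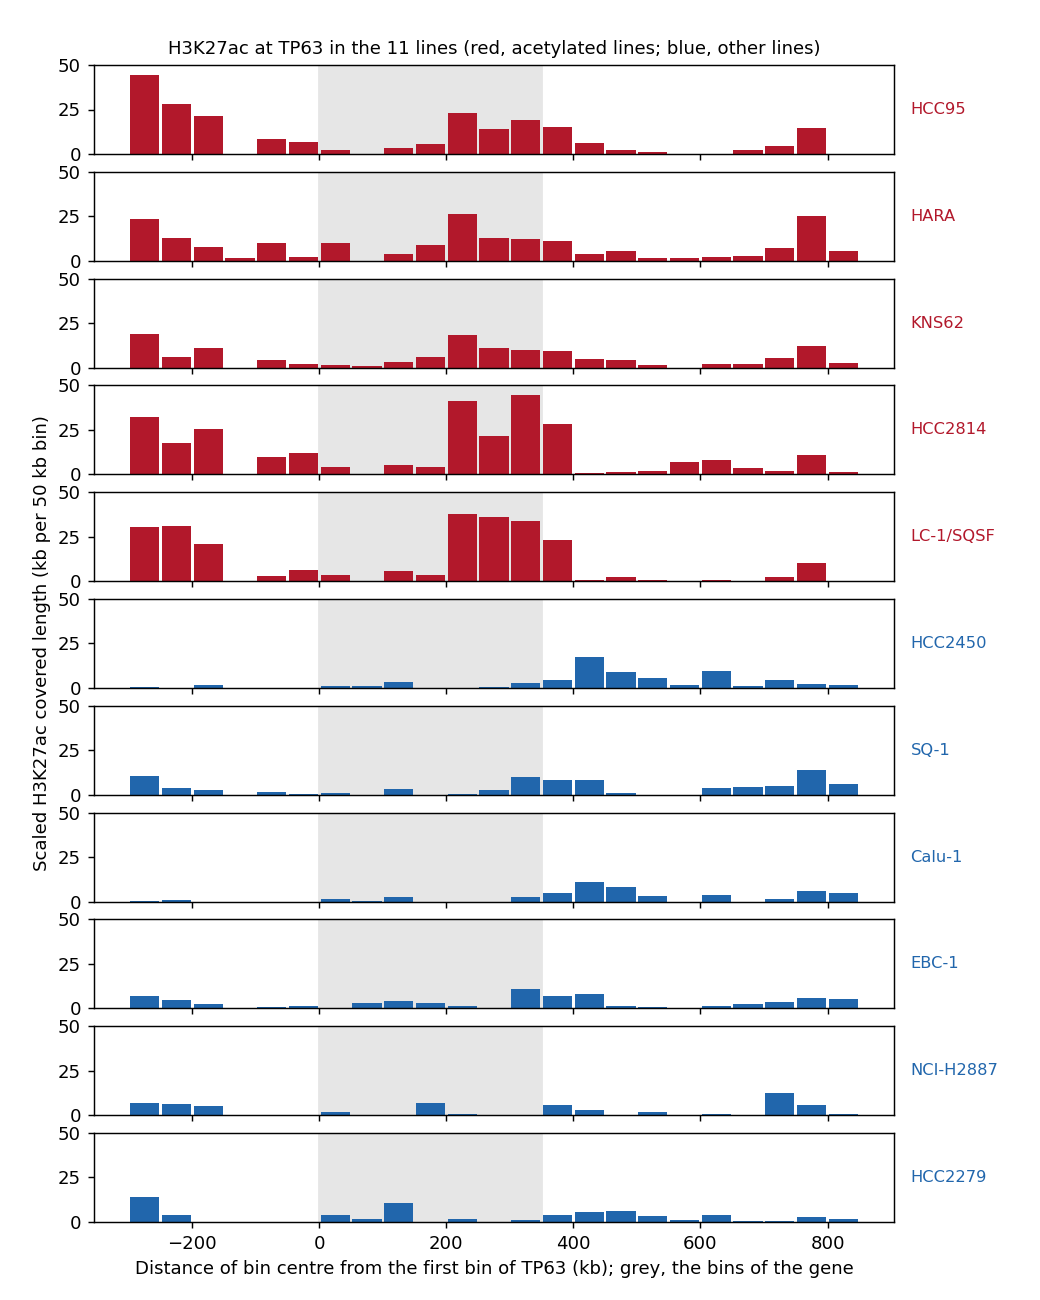
Scaled H3K27ac covered length (kb per 50 kb bin) in 23 bins around TP63, 1 panel per line, against the distance of the bin centre from the first bin of the gene; grey marks the 7 bins of the gene. The acetylated lines (red) are widest over the internal start and upstream of the gene, and HCC2450 (blue) is widest beyond the gene.

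Between 29473 and 43480 peaks per list were used, which together spanned 31.6 to 73.7 Mb. HCC2814 (31.6 Mb) and NCI-H2887 (35.4 Mb) had the least covered length, and they fall in different groups. Scaling to an equal total therefore raises the values of these lists most. Sequencing depth is unknown, since the files hold no read counts. Across the genome the acetylated lines resembled each other more than they resembled the others. The Jaccard index, the shared covered length divided by the combined covered length, averaged 0.401 over the 10 pairs of acetylated lines (0.349 to 0.449), 0.340 over the 15 pairs of other lines (0.266 to 0.427) and 0.274 over the 30 pairs between the groups (0.212 to 0.356). The nearest list of each line belonged to its own group in all 11 cases. HCC95 was the nearest list to the other 4 acetylated lines. NCI-H2887 was the most isolated, with 0.341 to EBC-1 as its highest index.

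Outside the TP63 neighbourhood, 10062 bins were tested with limma and 1570 differed between the groups at an adjusted p under 0.05, which is 15.6%. Of these, 773 were wider in the acetylated lines (7.68%) and 797 were narrower (7.92%). The ranges of the groups did not overlap in 806 bins (8.01%), 467 with the acetylated lines higher (4.64%) and 339 with them lower (3.37%). Over all tested bins the median difference was 0.10 (log2). In 60 of the higher bins all other lines were at 0, and in 109 of the lower bins all acetylated lines were at 0. These counts cannot be set against each other, because a bin was tested only where its mean over all lines reached 2000 bp. With the opposite group at 0, the 5 acetylated lines need a higher group mean to reach that limit than the 6 other lines do. With no filter, 1019 bins were called higher and 786 lower. The lines were grouped from the same lists, although at another locus, so a called bin differs between these lines, and its dependence on p63 was not tested here. Most runs of calls were short, but a run also ends at a bin that was not tested or missed the threshold. Run length is therefore not the extent of a difference. The higher calls formed 682 runs of adjacent bins, 609 of them a single bin, and the lower calls formed 665 runs, 559 of them a single bin. The counts leaned on single lines: without HCC95 there were 970 calls, 401 of them higher, and the higher calls numbered 489 without HCC2814 and 502 without LC-1/SQSF.

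Genes are named beside bins from general knowledge of the hg19 map, because no annotation of that build was used. The locus of the largest difference was PKP1, which encodes plakophilin-1, a desmosome plaque protein of stratified epithelium (chromosome 1, 201250001 to 201300000). Its bin had 30.9 kb in HCC95, 23.3 kb in HARA, 15.8 kb in KNS62, 36.3 kb in HCC2814 and 21.5 kb in LC-1/SQSF. Among the other lines only HCC2450 had any covered length there, with 0.701 kb. The difference was 4.55 on the log2 scale (SE 0.25, adjusted p = 1.32e-06, 5 against 6 lines). Differences are of log2(covered length + 1 kb), so a group at 0 gives a value that depends on the added 1 kb and no fold is given. The widest region present in all 5 acetylated lines and no other line also lay at PKP1 and spanned 21.6 kb.

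KRT5 encodes the type II keratin of basal cells, and its bin was at 0 in each of the 6 other lines (chromosome 12, 52900001 to 52950000). It had 20.5, 15.4, 8.59, 21.2 and 5.48 kb in HCC95, HARA, KNS62, HCC2814 and LC-1/SQSF, a log2 difference of 3.78 (SE 0.31, adjusted p = 1.80e-05). All 5 acetylated lines had a peak within 1 kb of the 5′ end of KRT5 and no other line did. At the neighbouring bin of KRT6A and KRT6C, stress and basal keratins, the acetylated lines had 5.12 to 16.1 kb and only HCC2450 of the others had any (1.11 kb). The partner type I keratins on chromosome 17 formed a run of 4 called bins (39700001 to 39900000), with KRT16 and KRT17 in a bin of 6.83 to 24.3 kb against 0 to 2.85 kb.

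The sequences before the starts of KRT5 and PKP1 are shown because all 5 acetylated lines had a peak within 1 kb of each start, against none of the other lines at KRT5 and 1 at PKP1. SFN is shown beside them as a known p63 target, and AXL as a gene whose bin was narrower. Each is the 250 bases before the transcription start in RefSeq (GRCh38.p14), 5′ to 3′ on the strand of the gene, and capitals mark a motif match.
KRT5: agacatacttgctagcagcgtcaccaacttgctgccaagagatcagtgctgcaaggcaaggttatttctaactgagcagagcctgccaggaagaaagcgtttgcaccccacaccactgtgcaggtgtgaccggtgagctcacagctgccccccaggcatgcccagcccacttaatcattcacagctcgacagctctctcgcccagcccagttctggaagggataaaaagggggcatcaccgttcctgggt
PKP1: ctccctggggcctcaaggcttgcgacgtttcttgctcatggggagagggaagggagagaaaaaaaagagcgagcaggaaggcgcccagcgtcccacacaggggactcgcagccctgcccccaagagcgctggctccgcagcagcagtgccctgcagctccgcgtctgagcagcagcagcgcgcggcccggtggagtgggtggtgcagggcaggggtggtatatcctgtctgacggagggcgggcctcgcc
SFN: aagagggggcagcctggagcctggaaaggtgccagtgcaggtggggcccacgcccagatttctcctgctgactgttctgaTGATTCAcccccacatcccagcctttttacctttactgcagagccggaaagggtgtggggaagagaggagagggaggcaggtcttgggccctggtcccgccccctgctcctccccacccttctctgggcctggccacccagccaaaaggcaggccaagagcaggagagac
AXL: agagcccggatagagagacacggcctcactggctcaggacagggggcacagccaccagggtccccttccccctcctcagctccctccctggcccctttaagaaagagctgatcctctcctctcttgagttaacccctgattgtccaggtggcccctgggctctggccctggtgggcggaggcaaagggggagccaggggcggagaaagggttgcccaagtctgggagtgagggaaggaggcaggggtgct
Both strands were searched for the AP-1 motif TGANTCA, the TEAD motif GGAATG and the core promoter motif TATAAA. Of 35116 RefSeq promoters, 6.57% held TGANTCA, 11.9% GGAATG and 10.7% TATAAA. Of the 4 sequences shown, SFN alone held a match, to TGANTCA. A motif of p63 cores was searched as well, and 0.296% of the RefSeq promoters held it. None of the 4 sequences shown had a match to this p63 motif. Among called genes of the lists below with a promoter entry, 0 of 17 higher and 0 of 5 lower genes held the p63 motif. With a pattern this rare and so few genes, a count of 0 cannot show whether these genes lack p63 sites. A match is a description of letters and not a binding site.

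The next 2 loci are described by a neighbouring gene, since their bins held none of the mapped genes. Beyond SOX2, which encodes a factor of foregut and squamous progenitors, the bin at 181600001 on chromosome 3 had 14.8, 11.7, 10.5, 23.9 and 23.9 kb in HCC95, HARA, KNS62, HCC2814 and LC-1/SQSF. Only EBC-1 of the other lines had covered length there (1.88 kb), and the log2 difference was 3.84 (SE 0.33, adjusted p = 2.62e-05). This stretch was 3 bins long, and the HCC2814 Sox2 list had 6 peaks in its leading bin. On chromosome 13, a run of 5 higher bins beyond KLF5 (73800001 to 74050000) was led by a bin with 4.55 kb in HCC95, 47.9 kb in HARA, 7.12 kb in KNS62, 49.2 kb in HCC2814 and 17.2 kb in LC-1/SQSF. The others had 0 to 2.43 kb there (log2 difference 3.79, SE 0.58, adjusted p = 0.00121). KLF5 is a zinc-finger factor of proliferating basal epithelium. The acetylated lines themselves spread widely at this bin, with HARA and HCC2814 highest and HCC95 lowest. That order is of scaled lengths, which the scaling raises most in HCC2814 among the acetylated lines. For HARA, 47.9 kb is the scaled length of a bin covered throughout.

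Around MYC, the growth-promoting factor on chromosome 8, the groups marked different stretches. Upstream of MYC, the bin at 128650001 had 15.8, 11.1, 12.001, 10.1 and 18.9 kb in HCC95, HARA, KNS62, HCC2814 and LC-1/SQSF, and 1.36 kb or less in the others (log2 difference 3.62, SE 0.28, adjusted p = 1.11e-05). A run of 5 higher bins over POU5F1B lay farther upstream (128350001 to 128600000). Downstream, in PVT1, a long noncoding RNA gene, the bin at 128900001 ran the other way. It was at 0 in HCC95, HARA and HCC2814, at 1.75 kb in KNS62 and at 0.871 kb in LC-1/SQSF, and between 8.51 and 37.4 kb (median 15.2) in the other lines (log2 difference -3.62, SE 0.38, adjusted p = 9.76e-05). The bin of the MYC start itself was not called, with 4.72 to 7.56 kb against 3.07 to 5.83 kb (log2 difference 0.55, adjusted p = 0.0890).

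The remaining leading higher loci included transporters and enzymes. SLC7A8, a transporter of neutral amino acids (chromosome 14, 23600001 to 23650000), had 13.6, 14.2, 14.9, 16.03 and 24.8 kb in HCC95, HARA, KNS62, HCC2814 and LC-1/SQSF, and only HCC2279 of the others had any (0.869 kb; log2 difference 3.96, SE 0.24, adjusted p = 1.57e-06). SLC47A2, an organic cation exporter beside ALDH3A1, an aldehyde dehydrogenase of cornea and oesophagus (chromosome 17, 19600001 to 19650000), had 20.6, 47.9, 11.5, 24.1 and 26.0 kb against 0 to 2.75 kb. Its log2 difference was 3.67 (SE 0.41, adjusted p = 0.000154). Between FAT2, a protocadherin of basal cells, and SPARC, a matrix protein gene, the bin at 150950001 on chromosome 5 had 18.04 to 28.1 kb in the acetylated lines, 3.45 kb in HCC2450 and 0 in the other 5 lines (log2 difference 4.29, SE 0.38). The adjoining bin at 151000001, which reaches the 3′ end of SPARC, was also wider (log2 difference 3.83), and its region present in all acetylated lines alone (151005728 to 151021906) lay outside the gene. The bin of the SPARC 5′ end was not called and was at 0 in HARA, KNS62, LC-1/SQSF, SQ-1 and EBC-1. The other 3 leading higher loci were a bin on chromosome 8 (49600001, 3.76), a stretch beyond SESN3 (chromosome 11, 95150001, 3.56) and one before RBBP8 (chromosome 18, 20400001, 3.52), all given as log2 differences. Another run of 4 higher bins covered PTHLH, the gene of parathyroid hormone-related protein, a hormone of squamous carcinomas (chromosome 12, 28100001 to 28300000).

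**Figure D2:**
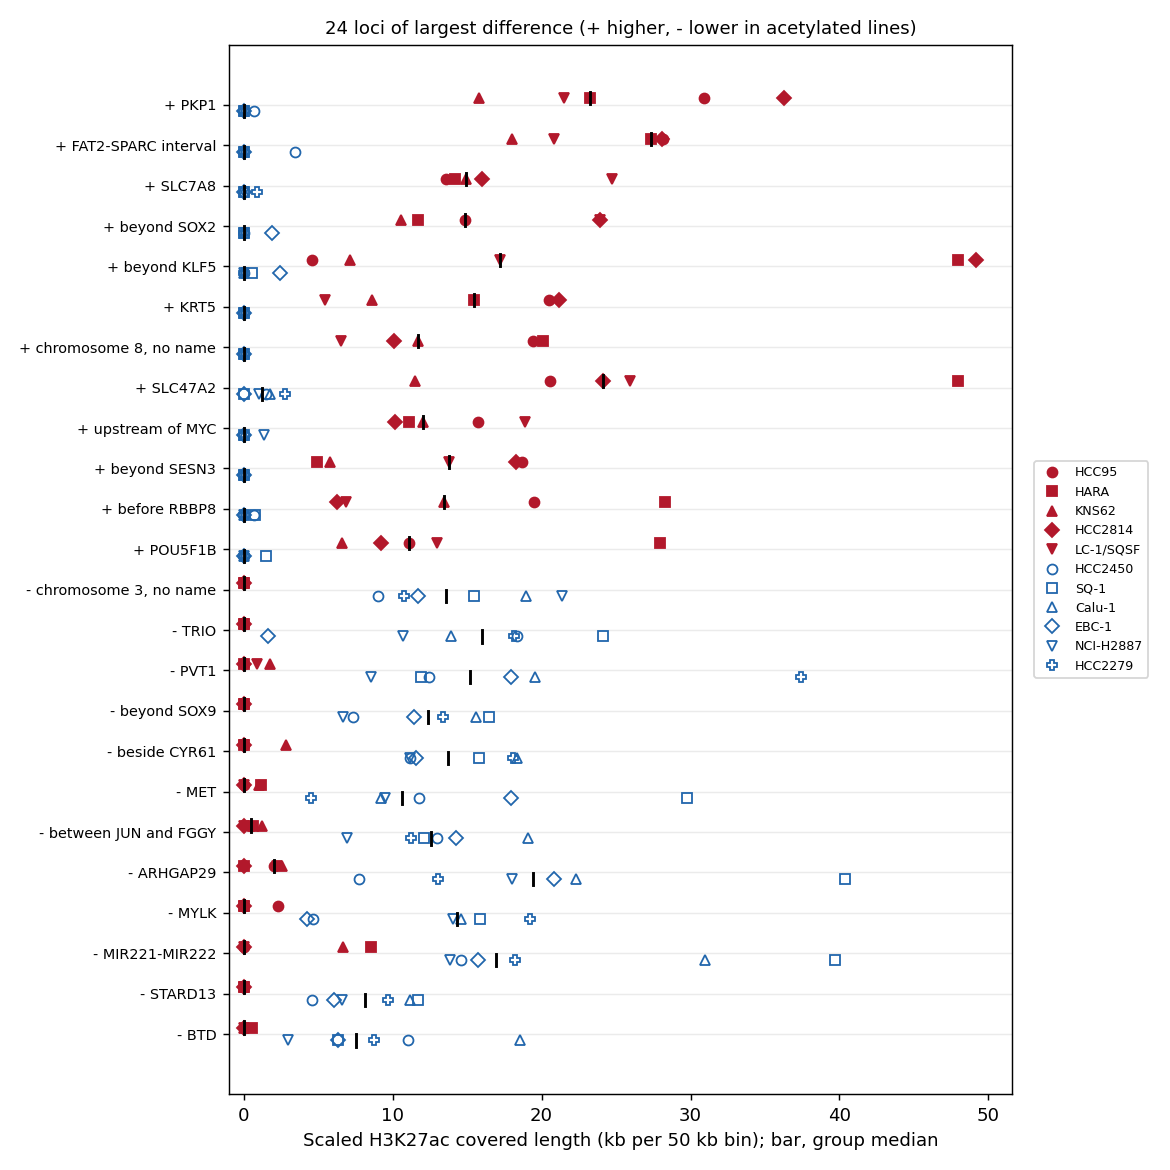
Scaled H3K27ac covered length (kb per 50 kb bin, x axis) of each line at the 12 loci of largest difference in each direction; filled red symbols are acetylated lines, open blue symbols other lines, and a black bar is the group median. Loci were picked for groups that do not overlap, and the spread within a group is widest beyond KLF5, from 4.55 to 49.2 kb.

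Among the 12 leading loci narrower in the acetylated lines, the first, on chromosome 3 (139000001 to 139050000), was at 0 in all 5 acetylated lines and at 9.03 to 21.3 kb (median 13.6) in the others (log2 difference -3.90, SE 0.23, adjusted p = 1.57e-06). TRIO, a nucleotide exchange factor for small GTPases (chromosome 5, 14200001 to 14250000), was also at 0 in all acetylated lines, and ran from 1.61 kb in EBC-1 to 24.1 kb in SQ-1 (median 16.01; log2 difference -3.67, SE 0.47, adjusted p = 0.000357). EBC-1 stood close to the acetylated lines there. MET, the receptor of hepatocyte growth factor, differed within the gene (chromosome 7, 116400001 to 116450000), with 1.13 kb or less in the acetylated lines and 4.53 to 29.7 kb (median 10.6) in the others (log2 difference -3.26, SE 0.40, adjusted p = 0.000273). The bin of the MET start was not called (log2 difference -0.90, adjusted p = 0.149).

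ARHGAP29, a GTPase-activating protein gene, had 2.01 kb in HCC95, 2.57 kb in KNS62, 2.21 kb in LC-1/SQSF and none in HARA or HCC2814, against 7.73 to 40.4 kb (median 19.4; log2 difference -3.24, SE 0.45). MYLK, the myosin light chain kinase gene, had 2.30 kb in HCC95, none in the other 4 acetylated lines and 4.22 to 19.2 kb in the others (-3.18 on the log2 scale, SE 0.44). A bin beside CYR61, which encodes a secreted matrix protein, had 2.83 kb in KNS62 and none in the other acetylated lines, against 11.2 to 18.3 kb (log2 difference -3.52, SE 0.35). The remaining lower loci lay beyond SOX9 (chromosome 17, 70350001, -3.61), between JUN and FGGY (chromosome 1, 59600001, -3.25), at STARD13 (chromosome 13, 33800001, -3.15) and at BTD (chromosome 3, 15650001, -3.03). The longest run in either direction was a lower one of 8 bins and 400 kb on chromosome 11 (86150001 to 86550000), which covers ME3, a mitochondrial malic enzyme gene, and reaches PRSS23, a serine protease gene. The groups did not overlap in 7 of its 8 bins.

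A bin of the microRNA genes MIR221 and MIR222 on chromosome X (45600001 to 45650000) was also narrower. It was at 0 in HCC95, HCC2814 and LC-1/SQSF, at 8.57 kb in HARA and at 6.69 kb in KNS62, against 13.8 to 39.7 kb (median 16.97) in the others (log2 difference -3.18, SE 0.64, adjusted p = 0.00561). MIR205HG, the host gene of miR-205, an epithelial microRNA, was wider in the acetylated lines. Its bin had 10.2, 10.5, 8.07, 19.7 and 8.26 kb in HCC95, HARA, KNS62, HCC2814 and LC-1/SQSF against 0 to 10.0 kb (median 0.227), and SQ-1 overlapped the acetylated lines (log2 difference 2.55, SE 0.59, adjusted p = 0.0121). The call was lost without HCC2814 and NCI-H2887 together (adjusted p = 0.0593). The mature microRNAs are shown from RefSeq (GRCh38.p14), with the seed, bases 2 to 8, in capitals.
hsa-miR-221-3p: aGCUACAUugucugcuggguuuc
hsa-miR-222-3p: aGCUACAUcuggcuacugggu
hsa-miR-205-5p: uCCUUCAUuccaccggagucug
The pair from chromosome X share the seed GCUACAU, and miR-205-5p has CCUUCAU. H3K27ac over a host locus says nothing of the level of the mature microRNA.

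Gene lists were read from the bin that holds the 5′ end of each gene. Of the 13 squamous and basal transcription factors tested, 7 were wider in the acetylated lines and none narrower, against 7.68% and 7.92% of all bins, and the list's median log2 difference was 1.53. These shares are the reference for every list below. They count bins, whereas the lists count genes, and some genes of a list share a bin. The 7 were KLF5, SOX2, TFAP2C, GRHL2, GRHL3, ZNF750 and FOXE1. GRHL3, a factor of epidermal barrier formation, had 20.9, 11.1, 6.94, 19.8 and 22.2 kb in HCC95, HARA, KNS62, HCC2814 and LC-1/SQSF, and 0 to 8.23 kb (median 0.717) in the others, where SQ-1 overlapped the acetylated lines (log2 difference 2.69, SE 0.56, adjusted p = 0.00672). ZNF750, a factor of terminal differentiation, had 2.81 to 11.6 kb in the acetylated lines and was at 0 in all other lines but SQ-1 (1.80 kb). SOX2 differed (log2 difference 2.36, SE 0.61, adjusted p = 0.0212) although NCI-H2887, with 16.8 kb, was above all acetylated lines (10.2 to 15.5 kb). That order is of scaled lengths, which the scaling raises most in HCC2814 and NCI-H2887, and unscaled lengths are not given here. Without HCC2814 the SOX2 bin had an adjusted p of 0.0551. GRHL2, a factor that keeps epithelial junction genes active, was at 11.2 kb in SQ-1 and 11.8 kb in EBC-1, within the 10.8 to 16.8 kb of the acetylated lines, and at 1.49 kb or less in the other 4.

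Of 9 basal and stratified keratins tested, in 6 bins, 6 were wider (KRT5, KRT14, KRT6A, KRT6C, KRT16 and KRT17) and none narrower, with a median of 2.93. KRT6A shares its bin with KRT6C, and KRT16 with KRT17. KRT13 and KRT15 share a bin with the simple keratin KRT19, which was not called. Within 1 kb of the KRT13 start, 5 acetylated and 0 other lines had a peak. It was 4 and 3 lines at KRT15 and 5 and 6 lines at KRT19. Of 4 simple keratins, KRT8 was wider, at 14.2 to 23.1 kb against 3.14 to 10.1 kb (log2 difference 1.45, SE 0.26, adjusted p = 0.00278). A peak within 1 kb of the KRT8 start was present in 4 acetylated lines and in all 6 other lines. The median of the simple keratins was -0.04. KRT18, the usual partner of KRT8, was not called, with 3.20 to 9.29 kb in the acetylated lines and 4.26 to 20.9 kb in the others. Of 12 desmosome and adhesion genes, 5 were wider (PKP1, DSG3, DSC3, DSP and PERP) and none narrower, against 7.68% and 7.92% of all bins. The median of this list was 0.93. DSG3, the desmoglein of basal layers, had 9.82, 25.7, 5.0002, 7.03 and 8.22 kb in HCC95, HARA, KNS62, HCC2814 and LC-1/SQSF against 0 to 4.31 kb (log2 difference 2.46, SE 0.47, adjusted p = 0.00417). Its neighbours DSG2 and DSC2, expressed in simple epithelia too, were not called (log2 differences 0.86 and 0.74). The hemidesmosome and laminin-332 genes, which anchor basal cells to the basement membrane, were mostly not called. Of 9 tested, ITGA6 was wider (1.45) and DST narrower (-1.64), and the laminin genes LAMA3 and LAMB3 were not called.

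Of 16 known p63 targets tested, 7 were wider and none narrower, against 7.68% and 7.92% of all bins, with a median of 1.05. TRIM29, a regulator of keratinocyte adhesion, had 10.0, 10.7, 11.8, 8.25 and 5.76 kb in HCC95, HARA, KNS62, HCC2814 and LC-1/SQSF against 0 to 1.005 kb (log2 difference 3.05, SE 0.27, adjusted p = 3.03e-05). JAG2, a Notch ligand, had 4.40 to 10.6 kb against 0 to 1.36 kb (2.66, SE 0.30), and BMP7, a secreted growth factor gene, had 3.73 to 9.96 kb against 0 to 0.702 kb (2.73, SE 0.31). FGFR2 and FGFR3 were both wider, but FGFR3 was uneven, with 23.7 kb in HCC95, 17.7 kb in HARA, 12.1 kb in KNS62, 2.82 kb in HCC2814 and 0.663 kb in LC-1/SQSF. Its call was lost without HCC95 or without HARA. The targets CDKN1A, MDM2, JAG1 and S100A2 were not called; S100A2, a calcium-binding protein gene, had 13.4 to 21.4 kb against 8.59 to 20.7 kb. Of 14 epidermal differentiation genes, 11 had too little covered length to test, among them IVL, LOR, FLG and the SPRR genes. CSTA, a protease inhibitor of the cornified envelope, was wider, with 0.915 to 10.7 kb in the acetylated lines and 0 in all others.

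None of 13 epithelial junction genes tested was called by limma, against 15.6% of all bins, 2 had an unadjusted p under 0.05, and the median was 0.17. A difference there is not excluded, since ESRP1, a splicing regulator of epithelial cells, had a log2 difference of 1.71 (adjusted p = 0.0780). CDH1, the epithelial cadherin gene, had 9.24 to 11.7 kb in the acetylated lines. In the others it was at 21.9 kb in SQ-1 and 21.8 kb in EBC-1 and at 0.261 to 4.83 kb in the other 4, so the other lines lay on both sides of the acetylated ones. Of 12 mesenchymal genes tested, 4 were narrower in the acetylated lines (VIM, COL1A1, AXL and TGFBI) and none wider, against 7.92% and 7.68% of all bins. The median of the mesenchymal list was -1.10. VIM, the intermediate filament gene of mesenchymal cells, had 0.727, 1.12, 3.45, 0.766 and 2.86 kb in HCC95, HARA, KNS62, HCC2814 and LC-1/SQSF. It had 10.0 to 13.9 kb in 5 of the other lines and 2.40 kb in SQ-1 (log2 difference -2.001, SE 0.40, adjusted p = 0.00570). AXL, a receptor tyrosine kinase, had 2.92 to 5.24 kb against 9.72 to 12.7 kb, and the groups did not overlap (-1.26, SE 0.19, adjusted p = 0.000926). ZEB1 and SNAI2, regulators of the mesenchymal transition, were not called (log2 differences -0.93 and 1.12).

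Markers of other cell types were mostly low or flat. All 12 neural and neuroendocrine genes had too little covered length to test. Of 8 lung and foregut genes tested, SOX9 was narrower (-1.20), against 7.92% of all bins, and the rest were not called. NKX2-1, the lung lineage factor used to recognise adenocarcinoma, was at 26.5 kb in SQ-1, 24.9 kb in Calu-1 and 16.6 kb in HCC2279, at 0 in HCC2450, EBC-1 and NCI-H2887, and at 0.571 to 2.57 kb in the acetylated lines. KRT5, the defining squamous keratin, had no listed H3K27ac peak in its bin in any of the 6 other lines, which the labels call squamous. At NKX2-1, 3 of the 6 had wide acetylation, but its bin was not called (log2 difference -0.76, limma adjusted p = 0.626). Within 1 kb of the NKX2-1 start, 5 acetylated and 3 other lines had a peak. NAPSA of the same list had a log2 difference of 0.47 and was not called. No line had a peak within 1 kb of its 5′ end. Of 5 leukocyte and endothelial genes tested, the bin of PTPRC was narrower (-2.56), against 7.92% of all bins. No line had a peak within 1 kb of the 5′ end of PTPRC. At an unadjusted p under 0.05 in limma, in either direction, stood 11 of the 13 squamous factors, 6 of the 9 basal keratins, 7 of the 12 desmosome genes, 11 of the 16 p63 targets and 5 of the 12 mesenchymal genes, against 30.5% of all bins tested. Several gene calls lay near the threshold. Those at DSP, PERP, GRHL2, SFN, DST and SOX9 were lost in 12, 9, 14, 13, 10 and 11 of 20 alternatives, including leaving out HCC95, HCC2814 or HCC2279 alone. The TFAP2C call was lost without LC-1/SQSF (adjusted p = 0.0526), and the KRT14 call with the better-scored 50% of peaks (adjusted p = 0.0951).

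**Figure D3:**
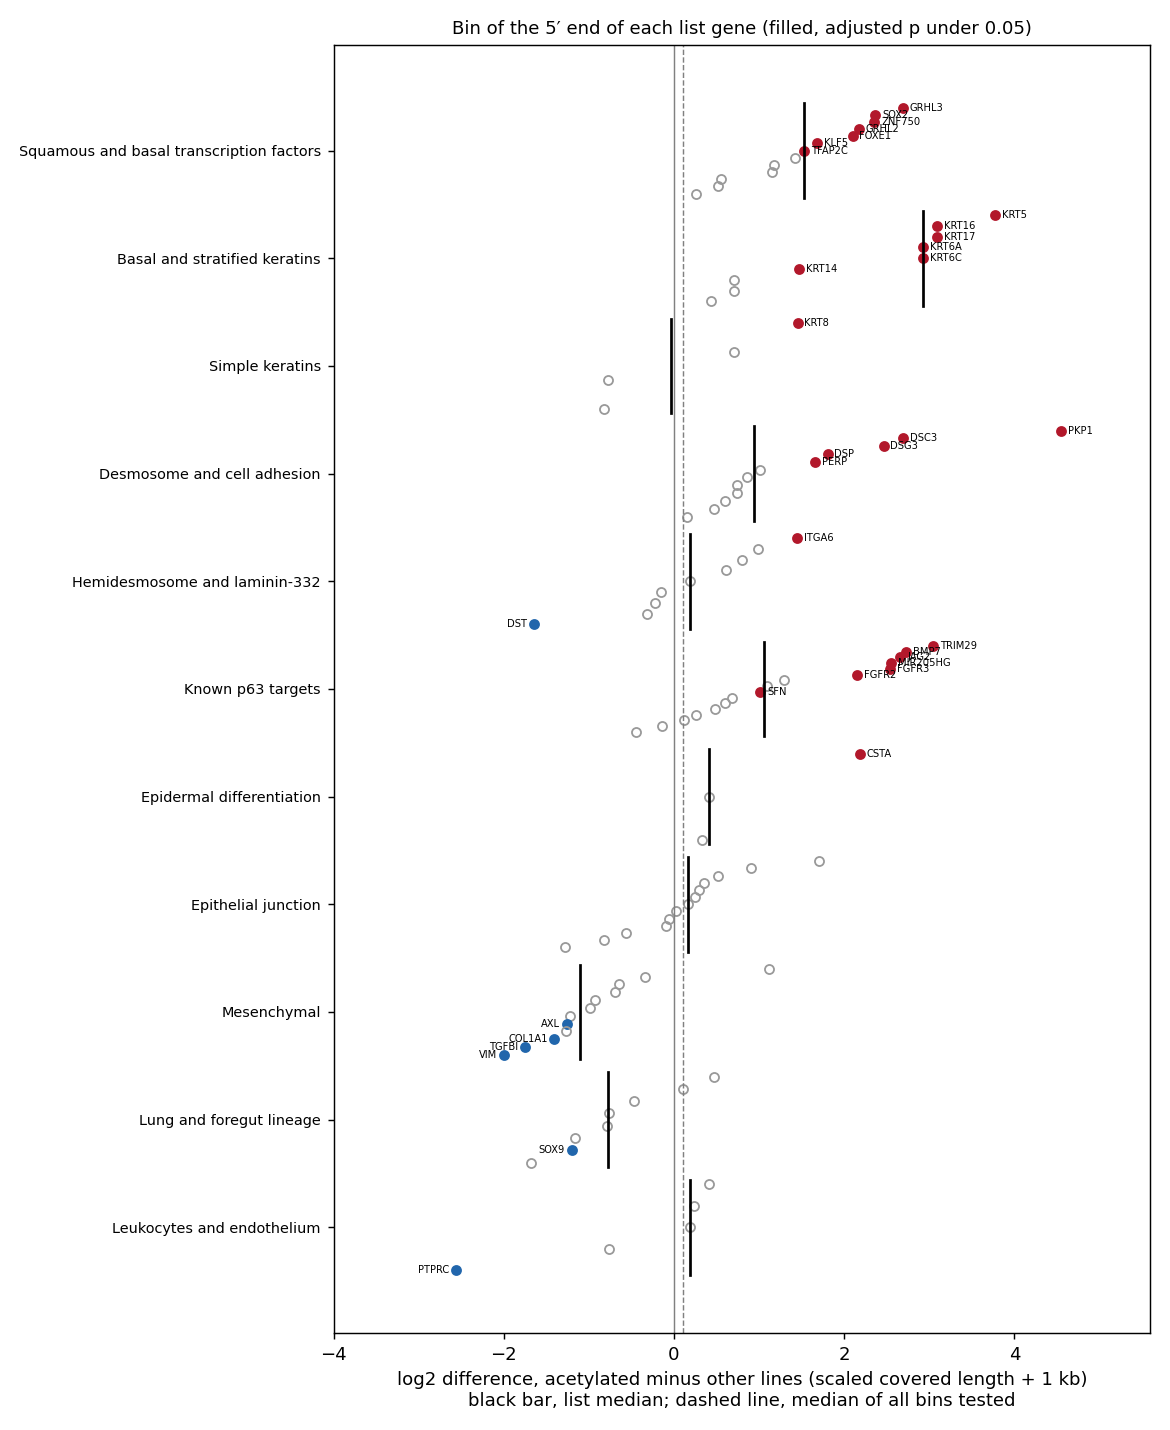
log2 difference (acetylated minus other lines, of covered length + 1 kb) at the bin of the 5′ end of each gene that could be tested, by list; filled points passed an adjusted p under 0.05, black bars are list medians and the dashed line is the median of all bins, 0.10. Squamous factors, basal keratins, desmosome genes and p63 targets have calls only on the higher side, and mesenchymal genes only on the lower side.

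Single lines departed from their group in ways the averages do not show. At least 99.1% of the higher bins had covered length in every acetylated line, and 63.5% to 71.8% had some in each of the other lines, so most of these bins were narrower there, not empty. For the lower bins, KNS62 had covered length in 76.4%, while the other acetylated lines had it in 42.7% to 53.3%. KNS62 was also among the acetylated lines with covered length at MIR221-MIR222, and the only one in the bin beside CYR61 and in that of PTPRC. SQ-1 was the other line closest to the acetylated lines at some genes and the farthest at others. It had the highest covered length of its group at GRHL3 (8.23 kb), ZNF750 and MIR205HG and the lowest at VIM and TGFBI. It also had the highest of its group at AXL (12.7 kb), TRIO (24.1 kb) and MIR221-MIR222 (39.7 kb). Its median was the lowest of its group over the higher bins (1.06 kb) and the highest over the lower bins (7.49 kb). HCC2450 gave the only covered length of its group at KRT6A, DSC3, FGFR2 and PKP1, all at 1.45 kb or less.

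Peaks of p63 itself were available from LK2_DNp63, an LK2 line labelled with DNp63 and outside the 11 lines. Its p63 list, with 3156 sites outside the TP63 neighbourhood, was compared with the H3K27ac list of each line. The share of p63 sites under an H3K27ac peak was 52.9% in HCC95, 45.0% in HARA, 55.3% in KNS62, 33.1% in HCC2814 and 46.4% in LC-1/SQSF, with a mean of 46.6% ± 8.67 (SD, n = 5). In the others it ran from 12.3% in NCI-H2887 to 18.1% in HCC2279, with a mean of 15.9% ± 1.93 (SD, n = 6). The groups did not overlap, and the difference of 30.7 percentage points had an exact two-sided permutation p of 0.00216, the smallest that 462 splits of the lines allow (adjusted p = 0.00758 over 7 factor lists). With the better-scored 50% of H3K27ac peaks it was 18.3 percentage points (adjusted p = 0.0152). HCC2814, lowest among the acetylated lines, also had the least covered length. The lines had between 20.9% (HCC2814) and 34.3% (KNS62) of all merged H3K27ac regions, and on that measure the ranges of the groups overlapped.

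Sites of Sox2 in LK2_DNp63 showed a smaller difference in the same direction, with 20.3% ± 3.19 against 14.8% ± 1.29 (SD, n = 5 and n = 6; exact permutation p = 0.00216, adjusted p = 0.00758). That call was lost with an overlap requirement of 50% of the site (adjusted p = 0.0833) and with the better-scored 50% of H3K27ac peaks (adjusted p = 0.0960). For Sox2 sites of LK2_GFP, LK2 and NCI-H520 and Brn2 sites of LK2 and NCI-H520 the differences were 2.42 to 3.68 percentage points, with an adjusted p of 0.110 for each (exact permutation test). Leaving out HCC2814 brought 4 of these 5 under 0.05, with Brn2 in NCI-H520 the exception. The Sox2 lists of HCC95, KNS62 and HCC2814 come from acetylated lines and have no test. The sites of HCC95 were acetylated at 43.5% on average in the acetylated lines and 23.7% in the others, and those of HCC2814 at 41.2% and 26.8%. The sites of KNS62 were acetylated at 60.6% in KNS62 itself, at 27.1% to 35.9% in the other acetylated lines and at 26.9% to 41.3% in the other lines, so apart from KNS62 the groups overlapped.

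**Figure D4:**
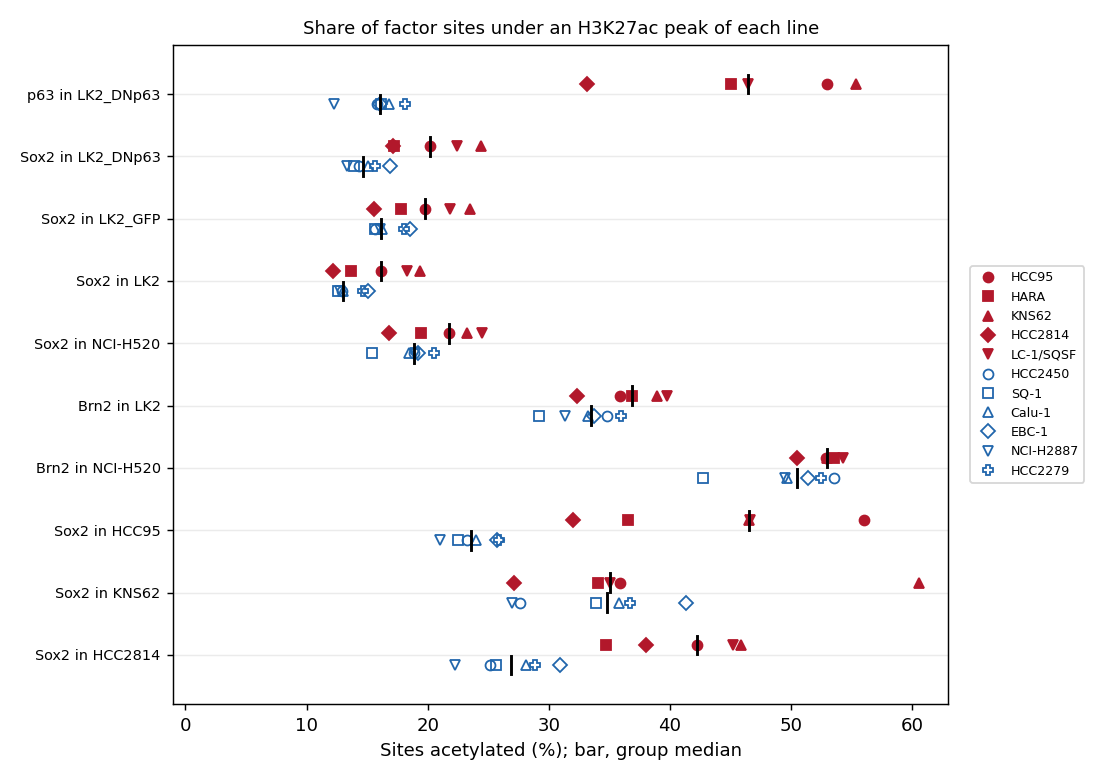
Share of the sites of each factor list (rows) that overlap an H3K27ac peak of each line, in percent (x axis); filled red symbols are acetylated lines, open blue symbols other lines, and bars are group medians. The p63 sites separate the groups by the widest gap, from 18.1% to 33.1%.

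The called bins were then set against the p63 list and the LK2 libraries. Of the 773 higher bins, 33.6% held a p63 peak of LK2_DNp63 (95% Wilson interval 30.4 to 37.0, counting error only). It was 5.77% of the 797 lower bins (4.35 to 7.61) and 10.2% of the bins not called (9.61 to 10.9). The bin on chromosome 8 at 49600001 held 5 p63 peaks and the one between FAT2 and SPARC held 4. PKP1 held 1, and the bins of KRT5 and SLC7A8 and the leading lower loci held none. Sox2 lists did not all follow this order. For Sox2 of HCC95, one of the 11 lines, the shares of higher, lower and not called bins were 73.4%, 28.7% and 42.0%. For Sox2 of KNS62 they were 47.0%, 38.3% and 29.3%, and for Sox2 of LK2_GFP 32.9%, 29.2% and 26.0%, so in these lists the lower bins too stood above the bins not called.

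H3K27ac was also deposited for LK2 with the label DNp63 and LK2 with the label GFP, 1 library each, so their difference has no replicate check. Of the higher bins, 16.6% were wider in LK2_DNp63 than in LK2_GFP by more than 1 on the log2 scale, against 4.64% of the lower bins, 5.005% of the bins not called and 5.86% of all bins. Higher bins with a p63 peak reached 26.2% and those without 11.7%. Bins with a p63 peak stood above the share of all bins in the other classes too. It was 15.3% of the 869 such bins not called and 17.4% of the 46 such lower bins. Of the 208 higher bins at 0 in LK2_GFP, 45.7% had covered length in LK2_DNp63, against 11.97% of lower bins and 23.8% of bins not called. Among bins at 0 that held a p63 peak, it was 67.2% of higher bins, 52.2% of lower bins and 50.6% of bins not called. The bin between FAT2 and SPARC went from 0 to 7.05 kb, that of KRT5 from 0 to 2.24 kb, that of KRT6A from 0 to 3.69 kb and that of MIR205HG from 0.567 to 12.2 kb. The bin of KRT14 was at 0 in both LK2 libraries, and that of SOX2 had 33.6 kb with GFP and 22.5 kb with DNp63. Most higher bins thus did not widen past that limit in LK2_DNp63, and their median difference was 0.10.

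**Figure D5:**
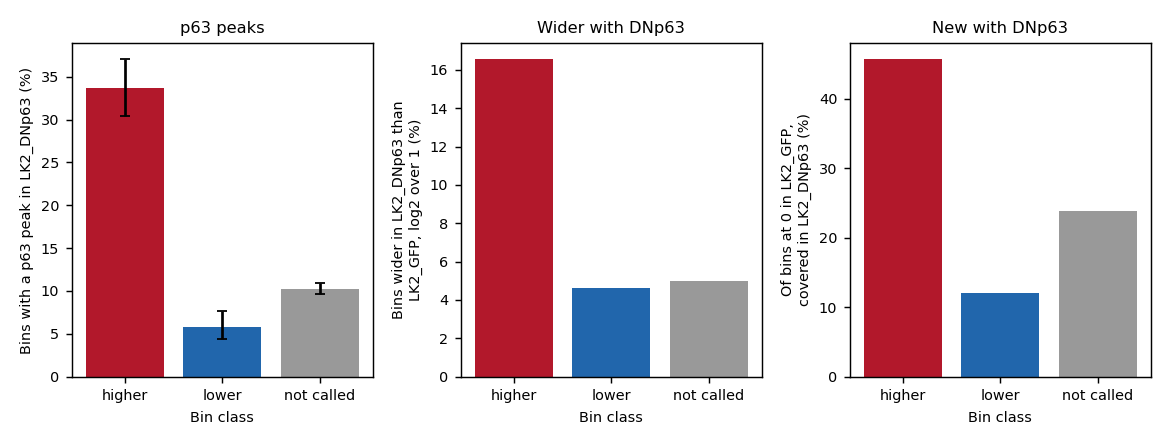
Left, percent of bins with a p63 peak of LK2_DNp63, by whether the bin was higher, lower or not called in the acetylated lines (error bars, 95% Wilson intervals). Middle, percent of bins wider in LK2_DNp63 than in LK2_GFP by more than 1 on the log2 scale; right, percent of bins at 0 in LK2_GFP that had covered length in LK2_DNp63; both compare 1 library per arm, and in all panels the higher bins stand highest (33.6%, 16.6% and 45.7%).

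Merged regions gave the same comparison without bins. Outside the TP63 neighbourhood, 836 of 101397 merged H3K27ac regions were present in all 5 acetylated lines and in no other line, and 234 in all 6 other lines and in no acetylated line. A p63 peak lay in 22.5% of the 836, in 0.855% of the 234 and in 2.29% of all regions. The median widths of these classes were 2855.5, 4326 and 1398 bp, and a wider region can hold a peak more easily. Of the 8425 regions present in all 11 lines (median 3526 bp), 3.58% held a p63 peak. In LK2_GFP 36.7% of the 836 regions were acetylated and in LK2_DNp63 49.6%, while both libraries had 3.42% of the 234. Of all merged regions they had 18.04% and 18.7%, and of the 8425 regions of all 11 lines 93.2% and 94.5%. After PKP1, the widest of the 836 were at SLC7A8 (18.04 kb), on chromosome 13 at KLF12 (17.4 kb) and beyond KLF5 (17.2 kb), and on chromosome 8 upstream of MYC (16.9 kb), and KRT5 had one of 15.5 kb. The widest of the 234 lay on chromosome 3 before TSC22D2 (150001646 to 150040284, 38.6 kb), and TM4SF4, a tetraspanin-like membrane protein gene, and DDAH1, an arginine-metabolism enzyme gene, held others. These counts moved with single lists: without HCC2814 the 836 became 1559, and the 234 became 624 without NCI-H2887, 531 without KNS62 and 361 without HCC2450.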

How the data were processed

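H3K27ac ChIP-seq peak lists of 11 lines, and factor and LK2 lists used beside them, were read as deposited. Per the submitters' processing notes, Bowtie2 and hg19 (GRCh37) were used, and the peak names hold the name MACS. The authors deposited a score per peak whose scale is not given in the sources used here, and it was used for nothing but ranking the peaks of 1 list. The files hold no read counts, so depth is unknown.

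Covered base pairs per bin of 50 kb were scaled to an equal total and tested with limma 3.58.1 in R 4.3.3 on log2(covered bp + 1000) with a mean-variance trend and Benjamini-Hochberg adjustment, where the mean over lines reached 2000 bp. The TP63 neighbourhood (chromosome 3, 189 to 190.2 Mb) was left out of tests. Shares of factor sites (overlap of at least 1 bp) were compared by exact two-sided permutation of lines in Python 3.11.15, adjusted over 7 lists. On simulated data with 200 changed bins among 10062, the fit for the acetylated against the other lines recovered 9%, 71% and 81% at log2 changes of 1, 2 and 3.

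Each line is 1 library, so p-values measure the spread between lines. The labels carry run codes shared by HARA with LC-1/SQSF and by Calu-1 with EBC-1, each within 1 group, so no comparison within a code was possible. The members and gene lists were chosen with earlier results of these data known. Loci were named as the 12 of largest difference in each direction among called bins whose groups do not overlap. The naming rule gave no values for list genes without an hg19 annotation. Genes were nevertheless placed and named, after values were seen, from general knowledge of the hg19 map; 216 of 216 lay on the same chromosome in the RefSeq GRCh38 table and 195 of 195 neighbouring pairs were in the same order. Some genes of the lists are not reported here. A planned test over gene windows was not run for want of that annotation.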

Additional observations from a re-analysis of the deposited data

Results flagged for a closer look

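In groups of 5 or 6 lines, 29 of 134 extreme values lay farther from the rest of their group than Dixon's 95% limit allows, and chance flags about 1 in 20 groups. A group with 1 covered line and the rest at 0 is always flagged, so many of these values are small. They are given as scaled covered length in kb unless stated, and the scaling raises the values of HCC2814 and NCI-H2887 most.

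Among the acetylated lines, KNS62 stood apart at its own Sox2 sites, of which 60.6% were acetylated. KNS62 also stood apart beside CYR61 (2.83 kb) and at PTPRC (2.07 kb). HCC2814 stood high at ZNF750 (11.6 kb), KRT6A (16.1 kb) and MIR205HG (19.7 kb), and HARA at DSG3 (25.7 kb), DSC3 (15.1 kb) and BTD (0.519 kb). LC-1/SQSF stood high at SLC7A8 (24.8 kb), and HCC95 at MYLK (2.30 kb) and FGFR2 (10.2 kb).

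Among the other lines, HCC2450 stood apart at PKP1 (0.701 kb), between FAT2 and SPARC (3.45 kb), at KRT6A (1.11 kb), DSC3 (1.35 kb), FGFR2 (1.45 kb) and, as the lowest of its group, DST (7.75 kb). SQ-1 stood high at ZNF750 (1.80 kb), MIR205HG (10.04 kb), AXL (12.7 kb) and POU5F1B (1.49 kb), and low at VIM (2.40 kb). EBC-1 stood apart beyond SOX2 (1.88 kb) and beyond KLF5 (2.43 kb), and NCI-H2887 at SOX2 (16.8 kb) and upstream of MYC (1.36 kb). HCC2279 stood apart at SLC7A8 (0.869 kb) and BMP7 (0.702 kb).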

How the results depend on the processing

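The 24 leading loci kept direction and call under each of 20 alternatives, and no gene bin reversed. These loci were picked as the largest called differences of the same data, so keeping a call is a weak check. Bins of 25 kb or 100 kb and shifted bins are not among the 20. Of 35 called genes, 24 kept the call of their bin under each alternative that gave a value. KRT6A and KRT6C share a bin, as do KRT16 and KRT17, and all of these were kept. Counts moved more. Without scaling the higher bins were 511 (44.9% of calls against 49.2%), and with no filter 1019 of 1805 calls were higher (56.5%). With the better-scored 50% of peaks 988 bins were called, 480 higher and 508 lower. Bins of 25 kb gave 2818 calls (1417 and 1401) and bins of 100 kb gave 837 (407 and 430). Leaving out 1 line gave 970 to 1835 calls, 401 to 903 higher and 534 to 932 lower, with the fewest lower calls without Calu-1 and the other minima without HCC95. Without HCC2814 and NCI-H2887 together, an alternative chosen after seeing the data, 1365 were called, 598 higher and 767 lower.

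For Sox2 sites of LK2_DNp63 the difference was 4.59 percentage points with 50% overlap of the site and 2.46 with the better-scored 50% of H3K27ac peaks, both with an adjusted p above 0.05. With the same number of top peaks per list, Sox2 in LK2_GFP (3.31) and Brn2 in LK2 (4.51) fell under 0.05. Divided by the share of all regions, the differences of Sox2 in LK2_GFP (0.122), LK2 (0.0978) and NCI-H520 (0.114) and of Brn2 in LK2 (0.181) did too. Leaving out 1 line gave 2.05 to 4.04 for Sox2 in LK2_GFP, 1.57 to 3.35 for LK2, 1.76 to 3.68 for NCI-H520 and 2.91 to 4.79 for Brn2 in LK2, each highest without HCC2814. For Brn2 in NCI-H520 it gave 1.53 (without SQ-1) to 3.68, and 50% overlap and better-scored peaks gave 5.22 and 4.99, all with an adjusted p above 0.05. For p63 the difference ran from 18.3 to 34.1 percentage points over the alternatives on that scale, each with an adjusted p under 0.05. Regions of 1 group alone became 254 and 63 with 50% overlap, 280 (acetylated) with better-scored peaks, and 876 to 1559 and 246 to 624 without 1 line. The cause of these shifts was not tested. No paired analysis was possible because each line has 1 list and the labels give no number shared between lines of the groups. Depth cannot be read from these files, so a bin at 0 is a bin without a listed peak.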
